A study of Mus musculus with 2 samples.

Results

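The 40 genes described here mark DNA replication and mitosis, and they were followed among the 32285 genes counted in single T cells from MB49 tumours. They were taken from a list of standard cell cycle genes, and all 40 were present in both count matrices. Of these genes, 17 are S phase genes, 21 are G2/M genes and 2 (Stmn1 and Tubb5) were given no phase. MB49 is a transplantable mouse bladder tumour line. Tumours were taken from male and from female C57BL/6J mice aged 12 to 14 weeks, on day 14 after transplant, digested with collagenase and sorted for viable cells staining for CD4. From each sex 1 library was made with a droplet 5′ kit, from 10000 to 20000 loaded cells. The labels name no transgene and no drug in either group, and they do not give the number of mice behind a library. With 1 library per sex there is no replicate, so no test of sex could be run, and every interval below is a 95% interval that covers counting error only.

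The female library held 3658 cell barcodes with 55880364 UMIs (unique molecular identifiers, each counting 1 captured RNA molecule), and the male library 3708 barcodes with 50946624 UMIs. The barcodes kept showed 500 genes or more and no more than 10% mitochondrial UMIs, 3468 from the female and 3519 from the male library, and 16 barcode sequences occurred in both libraries. Barcodes were placed in classes by their transcripts. A Cd8 barcode had at least 2 UMIs of Cd8a and Cd8b1 together and no Foxp3 UMI, and was split by whether any Havcr2 (the inhibitory receptor TIM-3) or Tcf7 (the transcription factor TCF-1, kept in memory-like T cells) was seen. A Foxp3 barcode held at least 1 UMI of Foxp3, the transcription factor of regulatory T cells, with or without a Cd8a or Cd8b1 UMI. An other Cd4 barcode held at least 1 Cd4 UMI and none of Foxp3, Cd8a or Cd8b1. The label of sorted CD4+ cells did not match most of the transcripts: Cd8 barcodes were 63.1% of the 6281 kept barcodes with at least 3000 UMIs, and a Cd4 UMI was found in 5.21% of female and 3.81% of male Cd8 barcodes. In Foxp3 barcodes without Cd8, by contrast, 61.8% of female and 59.4% of male barcodes held a Cd4 UMI.

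In dividing cells the members act in waves. S phase genes load and open the replication helicase, clamp the polymerase to DNA and supply nucleotides, and they are switched on by E2F factors when the retinoblastoma protein is released. G2/M genes condense chromosomes, build the spindle, attach kinetochores and drive exit from mitosis, and they are held down in resting cells by the DREAM complex, which binds the CHR element, and are switched on through the same element and CCAAT boxes. T cells leave rest and divide quickly after they meet antigen, so these transcripts are commonly used to find dividing cells in tumours.

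The promoters of 32 of the 40 members were matched in the RefSeq table (GRCm38.p6), and the 250 bases before the start were searched on both strands. Not in the table were Aurkb, Ccna2, Ccne2, Gins2, Kif20a, Mcm4, Stmn1 and Tpx2. The letters searched were TTTGAA and TTCGAA for the CHR element, TTTCCCGC, TTTCGCGC, TTTGCCGC and TTTGGCGC for E2F, and CCAAT. The 160 bases before the start are shown for 2 S members and 3 G2/M members, because they show the different letters of the 2 waves. They lie at chr8:75109349-75109508 (+ strand) for Mcm5, chr1:128359706-128359865 (− strand) for Mcm6, chr10:69352913-69353072 (− strand) for Cdk1, chr11:99024190-99024349 (− strand) for Top2a and chr7:135716380-135716539 (− strand) for Mki67. All are upstream of the RefSeq start, 5′ to 3′ on the strand of the gene, and capitals mark the letters searched on either strand. The last bases of the Cdk1 stretch lie inside the gene as GENCODE M21 draws it:
Mcm5: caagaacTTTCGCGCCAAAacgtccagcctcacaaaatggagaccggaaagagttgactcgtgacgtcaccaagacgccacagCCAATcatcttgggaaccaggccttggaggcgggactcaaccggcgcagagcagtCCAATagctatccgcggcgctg
Mcm6: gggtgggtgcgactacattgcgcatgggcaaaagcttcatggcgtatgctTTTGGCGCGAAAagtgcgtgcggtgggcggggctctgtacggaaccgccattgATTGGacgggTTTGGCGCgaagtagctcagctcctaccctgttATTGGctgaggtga
Cdk1: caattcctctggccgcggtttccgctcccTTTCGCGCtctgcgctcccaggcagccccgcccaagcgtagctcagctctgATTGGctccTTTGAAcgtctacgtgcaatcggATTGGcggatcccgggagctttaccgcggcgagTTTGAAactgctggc
Top2a: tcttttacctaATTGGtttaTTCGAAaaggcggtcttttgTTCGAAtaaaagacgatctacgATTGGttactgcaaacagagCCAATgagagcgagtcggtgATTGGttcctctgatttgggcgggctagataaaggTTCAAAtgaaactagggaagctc
Mki67: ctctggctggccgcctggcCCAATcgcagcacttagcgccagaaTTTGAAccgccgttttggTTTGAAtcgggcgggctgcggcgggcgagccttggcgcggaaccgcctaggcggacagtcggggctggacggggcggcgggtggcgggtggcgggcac
In Mcm5 and Mcm6 the E2F letters of the 2 strands overlap (TTTCGCGC with GCGCCAAA, and TTTGGCGC with GCGCGAAA), and TTCGAA in Top2a reads the same on both strands. Cdk1 held all 3 kinds of letters. E2F letters were found in 35.7% of S promoters (Cdc6, Mcm5, Mcm6, Mcm7 and Uhrf1, of 14), in 5.88% of G2/M promoters (Cdk1, of 17) and in 2.16% of the promoters of all 27025 genes in the table. CHR letters were found in 47.1% of G2/M promoters (Ccnb2, Cdc20, Cdk1, Hmgb2, Kif11, Mki67, Top2a and Ube2c), in 14.3% of S promoters (Mcm2 and Mcm7) and in 19.6% of all promoters. CCAAT was found in 71.4% of S, 88.2% of G2/M and 37.5% of all promoters. A gene was counted where any start listed for it held the letters. Mcm7 and Uhrf1 have 2 listed starts, and the E2F letters of Uhrf1 lie only before the second. A match describes the letters of these windows and is no measure of binding.

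To set barcodes of different depth side by side, each barcode with at least 3000 UMIs was thinned at random to 3000. The thinned barcode was called S with UMIs of at least 3 different S members, G2/M with UMIs of at least 3 different G2/M members, and cycling with either. Of the 6281 barcodes, 1716 were called cycling (27.3%, 26.2 to 28.4), of which 763 had the S call only, 725 had both and 228 had the G2/M call only. The cut runs through a continuous range, with 1358 barcodes 1 gene short of it and 529 exactly on it. A cycling Cd8 barcode held a median of 12 member UMIs of 3000, against 2 in a Cd8 barcode that was not cycling.

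**Figure D1:**
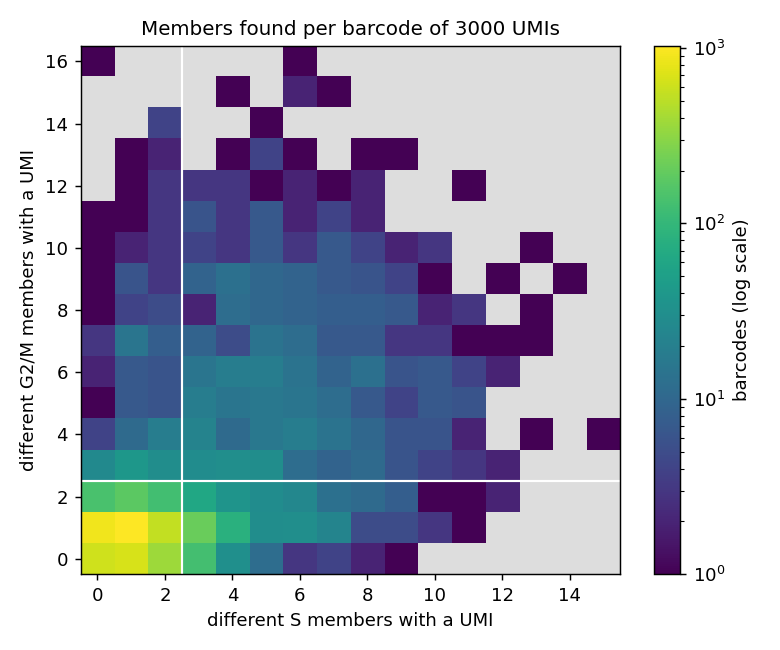
Number of different S members (x axis, of 17) and G2/M members (y axis, of 21) with a UMI in each of the 6281 barcodes thinned to 3000 UMIs. Colour gives the number of barcodes on a log scale, grey cells hold none, and the white lines mark the cut at 3 genes. Most barcodes lie in the lower left corner, with 1027 at 1 S and 1 G2/M member, and no gap separates them from the 1716 beyond the lines.

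Gene lists that took no part in the call followed it in Cd8 barcodes. Another 29 S genes summed to 6.44 UMIs per 10000 in female Cd8 barcodes that were not cycling (6.21 to 6.68), to 13.1 in barcodes with the S call only, to 23.5 in barcodes with both calls and to 8.89 in barcodes with the G2/M call only. A list of 31 other G2/M genes ran at 5.60, 7.25, 27.8 and 21.2 in the same order, and 65 replication-dependent histone genes, whose transcripts are made in S phase, at 3.72, 5.93, 40.9 and 21.3. The male library gave 5.67, 13.4, 24.3 and 8.40 for the other S genes, and 5.23, 7.92, 28.7 and 26.2 for the other G2/M genes. Barcodes with the S call alone thus held fewer histone and other S transcripts than barcodes with both calls. Among the regulators, E2f1, which drives S phase genes, had 66 UMIs in the 652 cycling female Cd8 barcodes and 12 in the 1506 others, and 33 against 20 in the 427 cycling and 1378 other male barcodes. Mybl2, which activates G2/M genes with the MuvB core, had 40 UMIs against 4 in female and 36 against 8 in male barcodes. Of 18 inhibitors and genes of rest, 16 had at least 20 UMIs in each library, and 4 were 1.5-fold lower and 2 higher in cycling barcodes of both libraries. The lower ones were Klf2 (a factor of T cell quiescence), by -1.44 on the log2 scale in female and -1.25 in male barcodes, S1pr1 (the receptor for leaving tissue), by -1.41 and -1.56, Btg1 and Tob1. The higher ones were the inhibitor gene Cdkn2c (1.36 and 1.65) and Rbl1 (0.85 and 1.46), which encodes a relative of the retinoblastoma protein. The share of all genes past 1.5-fold was not computed for cycling against other barcodes, so these counts are a description only.

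Members differed in how closely they kept to barcodes with a UMI of Mki67, itself a G2/M member. Since 1716 barcodes were called cycling and 647 held Mki67, the barcodes without it include cycling ones. Of 647 thinned barcodes with a UMI of Mki67, the gene of the proliferation antigen Ki-67, 51.8% also held Pclaf, a partner of the replication clamp, and 6.92% of the 5634 barcodes without Mki67 did. Top2a, which untangles DNA, was in 49.6% against 9.21%, Birc5, the passenger complex subunit survivin, in 38.9% against 4.06%, and Ccna2, cyclin A2, in 25.5% against 2.68%. Other members were common in barcodes without Mki67 too: the chromatin protein gene Hmgb2 in 60.4% (88.4% with Mki67), the tubulin gene Tubb5 in 56.7% (84.4%), the helicase subunit gene Mcm6 in 24.8% (39.4%), the dUTPase gene Dut in 24.0% (54.7%) and the clamp gene Pcna in 23.3% (38.9%). Without Pcna, Mcm4, Mcm6, Dut and Hmgb2 in the call, the cycling share of Cd8 barcodes was 17.1% in place of 27.2%, and that of other Cd4 barcodes 1.85% in place of 9.95%. RNA released by broken cells also gives such UMIs, and its part was not tested.

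In T cells of these tumours the call was most common in Foxp3 barcodes with Cd8 UMIs and least common in other Cd4 barcodes when all depths were taken. Among Cd8 barcodes 652 of 2158 female (30.2%, 28.3 to 32.2) and 427 of 1805 male (23.7%, 21.7 to 25.7) were cycling. Foxp3 barcodes without Cd8 were cycling in 36 of 214 female (16.8%, 12.1 to 22.5) and 36 of 313 male barcodes (11.5%, 8.19 to 15.6). The Foxp3 barcodes with Cd8 UMIs reached 54.2% (49.1 to 59.2, of 393) in female and 47.5% (43.0 to 52.0, of 491) in male barcodes. Other Cd4 barcodes were cycling in 28 of 224 female (12.5%, 8.47 to 17.6) and 15 of 208 male barcodes (7.21%, 4.09 to 11.6). Of the 1716 cycling barcodes, 62.9% were Cd8 (63.1% of all barcodes), 26.0% were Foxp3 with Cd8 (14.1% of all), 4.20% Foxp3 without Cd8 (8.39%) and 2.51% other Cd4 (6.88%). Kept barcodes of fewer than 3000 UMIs (272 female and 434 male) were not called.

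Depth moved with the call in every class, also after thinning. Cycling Cd8 shares in both libraries together were 10.3% from 3000 to 5000 UMIs, 11.9% up to 8000, 14.2% up to 12000, 32.7% up to 20000 and 65.8% (62.3 to 69.1) from 20000 UMIs. Foxp3 barcodes without Cd8 were at 7.52% in the first bin and at 86.7% in the last, which held only 15 of them, and other Cd4 barcodes had 7 there. Median depth of the called barcodes was 33238 UMIs in Foxp3 with Cd8, 10181 in Cd8, 6455 in Foxp3 without Cd8 and 5496.5 in other Cd4 barcodes. No doublet caller was run, and how many deep barcodes held more than 1 cell was not tested.

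**Figure D2:**
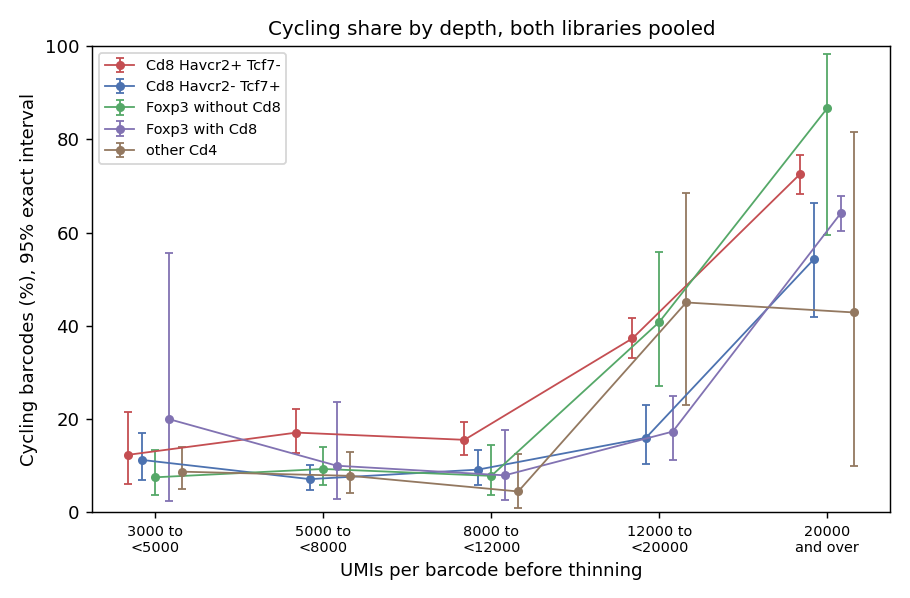
Share of cycling barcodes (y axis, %) by the UMIs of the barcode before thinning (x axis, 5 bins), both libraries pooled, with 1 line per class and exact 95% intervals. Shares lie at 20% or below up to 12000 UMIs in every class and at 42.9% or more from 20000 UMIs, and Cd8 Havcr2+ Tcf7- lies above Cd8 Havcr2- Tcf7+ in each bin.

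Between 5000 and 15000 UMIs, where all classes have barcodes, the high share of Foxp3 barcodes with Cd8 was not seen. They were cycling in 13 of 149 barcodes (8.72%, 4.73 to 14.5), against 36 of 354 Foxp3 barcodes without Cd8 (10.2%, 7.22 to 13.8), a difference of -1.44 percentage points (-6.84 to 5.0), where it had been 36.8 points (32.1 to 41.2) at all depths. Of the Foxp3 barcodes in this range that held a single Cd8 UMI 2 of 34 were cycling (5.88%), and of those with 2 or more 11 of 115 (9.57%). Cd8 barcodes had a higher share than Foxp3 barcodes without Cd8, 15.3% against 10.2%, by 5.15 points (1.24 to 8.46), and a higher share than other Cd4 barcodes (8.57%), by 6.74 points (2.27 to 10.3). The intervals of Cd8 minus Foxp3 without Cd8 reached below 0 in each library alone (4.57 points in both, -2.19 to 9.98 for female and -0.439 to 8.52 for male barcodes). Cd8 minus other Cd4 gave 7.73 points (0.911 to 12.8) in the female and 5.53 points (-1.05 to 9.98) in the male library. Foxp3 barcodes without Cd8 and other Cd4 barcodes were not told apart at this depth (1.598 points, -3.56 to 6.43). Cd8 barcodes were also the deeper of these 3 classes in this range, with medians of 8570 UMIs in Cd8, 7191.5 in Foxp3 without Cd8 and 6825 in other Cd4. From 12000 to 20000 UMIs 32.7% of Cd8 (29.5 to 36.0) and 40.8% of Foxp3 barcodes without Cd8 (27.0 to 55.8, of 49) were cycling. Other Cd4 barcodes were at 45% there (23.1 to 68.5, of 20), so a higher Cd8 share was not seen at that depth.

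Within Cd8 barcodes of all depths the call was most common where Havcr2 was seen and least common where Tcf7 was seen without it. It was made in 37.1% of Havcr2+ Tcf7- barcodes (34.8 to 39.5, of 1724), 36.3% of Havcr2+ Tcf7+ (31.7 to 41.1, of 424), 19.7% of Havcr2- Tcf7- (16.95 to 22.7, of 777) and 12.7% of Havcr2- Tcf7+ barcodes (10.7 to 14.9, of 1038). Havcr2+ Tcf7- exceeded Havcr2- Tcf7+ by 24.0 points (19.4 to 28.3) in female and by 24.0 points (19.5 to 28.5) in male barcodes. The 4 groups differ in depth (medians of 13100, 20627.5, 7229 and 7630.5 UMIs in the called barcodes). From 5000 to 15000 UMIs the same difference was 10.3 points (5.13 to 15.1) in female and 11.7 points (6.92 to 16.6) in male barcodes. In that window Havcr2- Tcf7- barcodes, with 17.1%, lay 8.68 points (4.84 to 12.6) above Havcr2- Tcf7+ barcodes, with 8.46%. They were not told apart from Havcr2+ Tcf7- barcodes, with 19.8% (2.67 points, -1.64 to 6.80), and in the female library their share was 20.5% against 20.4%. Havcr2+ Tcf7+ barcodes were at 14.9% (22 of 148), so the order of the groups at all depths was not kept in the window. Among barcodes without Havcr2, those without Tcf7 thus had the larger share, although the male library alone gave 4.49 points with an interval that reached below 0 (-0.514 to 10.2). Among barcodes with Havcr2, those without Tcf7 were not told apart from those with it, at 4.94 points (-2.29 to 10.9) in the window and 0.802 points (-4.49 to 5.95) at all depths.

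**Figure D3:**
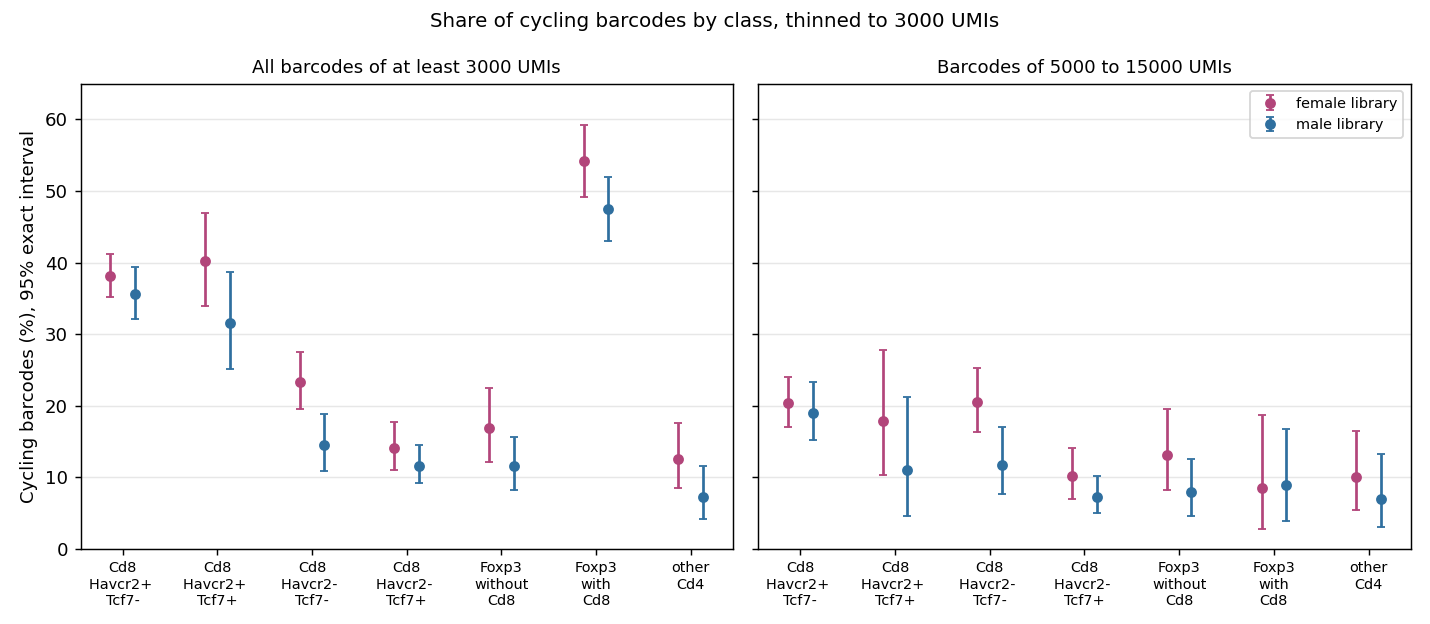
Share of cycling barcodes (y axis, %) in each class (x axis), with exact 95% intervals, for the female and the male library. The left panel has all barcodes of at least 3000 UMIs, where Foxp3 with Cd8 is highest (54.2% and 47.5%); the right panel has barcodes of 5000 to 15000 UMIs, where that class lies at 8.47% and 8.89%.

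At all depths the mix of phases differed between classes. The G2/M call was held by 53.9% of cycling Cd8 barcodes, by 59.8% of cycling Havcr2+ Tcf7- barcodes and by 37.9% of cycling Havcr2- Tcf7+ barcodes, a difference between the last 2 of 22.0 points (12.3 to 31.1). It was seen in each library, with 23.5 points (9.58 to 35.9) in the female and 21.8 points (7.69 to 35.0) in the male. Havcr2- Tcf7- barcodes, with 39.9%, lay near Havcr2- Tcf7+ (1.99 points, -9.82 to 13.7), while Havcr2+ Tcf7+ barcodes, with 57.1%, lay 19.3 points above them (7.19 to 30.7). Of cycling Foxp3 barcodes without Cd8, 43.1% had the G2/M call, and of those with Cd8 65.9%. In other Cd4 barcodes it was 25.6%, with 32 of 43 cycling barcodes holding the S call alone. Shallow barcodes had fewer G2/M calls. From 5000 to 15000 UMIs 127 of 357 cycling Cd8 barcodes had one (35.6%), 13 of 36 cycling Foxp3 barcodes without Cd8 (36.1%, 20.8 to 53.8) and 3 of 13 of those with Cd8 (23.1%, 5.04 to 53.8), so the order of the classes at all depths was not kept, on few barcodes. Cycling Havcr2+ Tcf7- barcodes of that window had the G2/M call in 41.8% (34.5 to 49.3, of 182). Cycling Havcr2- Tcf7+ barcodes had it in 24.2% (14.2 to 36.7, of 62), so the intervals of these 2 groups overlapped there. As a share of all barcodes in that window, the G2/M call was made in 8.27% of Havcr2+ Tcf7- and in 2.05% of Havcr2- Tcf7+ barcodes (6.22 points, 4.08 to 8.39).

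Next the members were compared 1 by 1 between Havcr2+ Tcf7- and Havcr2- Tcf7+ Cd8 barcodes, as CPM, the UMIs of a gene scaled to the total UMIs of the class, before thinning. A gene was taken as measured with at least 10 CPM in 1 of the 2 classes and 20 UMIs over both, in each library, and as higher or lower where it passed 1.5-fold in the same direction in both libraries. Of 37 measured members 33 were higher in Havcr2+ Tcf7- barcodes and 0 lower, where 10% of the 7664 genes measured were higher and 6.85% lower. The median member was 1.16 higher on the log2 scale in female and 1.43 in male barcodes, against medians of 0.07 and 0.10 over all genes. All 19 measured G2/M members and 13 of 16 S members were higher. Ccne2, Aurka and Kif20a were too low to be measured in both libraries. Since a filter on level passes a gene more easily where 1 class is high, the count is a description and not a test.

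Among the genes of replication licensing and the helicase, Mcm5 stood at 77.1 CPM in Havcr2+ Tcf7- and 41.7 CPM in Havcr2- Tcf7+ barcodes of the female library, and at 64.2 and 30.6 CPM in the male library, a difference of 0.89 (0.67 to 1.12) and 1.07 (0.83 to 1.32) on the log2 scale. The 2 classes did not overlap in the libraries, since both values of the first lay above both of the second. Mcm2, Mcm3 and Mcm7, further subunits of the helicase ring, were 0.68 to 0.81 higher, and the loading factor Cdc6 was 1.496 and 1.26 higher at 10.7 to 13.7 CPM. Gins2, of the active helicase, was 0.66 and 1.34 higher. Mcm4 (0.37 and 0.38) and Mcm6 (0.48 and 0.68) did not pass 1.5-fold in both.

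Of the genes at the fork, the clamp gene Pcna did not pass either, with 146 against 104 CPM in female and 132 against 83.8 CPM in male barcodes. Its partner Pclaf was far higher, with 221 against 86.0 CPM and 203 against 59.4 CPM, or 1.36 (1.21 to 1.51) and 1.77 (1.61 to 1.94) on the log2 scale. Uhrf1, which carries DNA methylation to the new strand, was 1.06 and 1.27 higher. All 5 genes of nucleotide supply were higher. Rrm2, the regulated subunit of ribonucleotide reductase, stood at 103 against 46.8 CPM in female and at 98.5 against 27.7 CPM in male barcodes, which made 1.14 (0.93 to 1.35) and 1.83 (1.59 to 2.08). Its partner Rrm1 differed less (0.85 and 0.80), and Tyms, Tk1 and Dut by 0.87 to 1.46.

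Cyclins and Cdk1 were higher in Havcr2+ Tcf7- barcodes in both libraries. Cdk1, the kinase of mitotic entry, stood at 60.5 against 29.5 CPM in female and at 61.6 against 17.7 CPM in male barcodes (1.04 and 1.80). Ccna2 differed by 1.61 and 1.81, and Ccnb1 and Ccnb2, the B cyclins that partner Cdk1, by 1.16 to 1.81. Mki67 stood at 122 against 51.0 CPM and at 116 against 40.6 CPM, which is 1.26 (1.06 to 1.46) and 1.51 (1.31 to 1.72). Top2a was 1.24 and 1.41 higher, and Hmgb2, at 917 against 508 CPM in the female library, 0.85 and 0.91 higher.

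Genes of the centromere and the spindle were higher in the same barcodes. Birc5 stood at 109 against 33.2 CPM in female and at 123 against 38.1 CPM in male barcodes (1.71 and 1.69). The passenger kinase Aurkb was 1.19 and 1.94 higher and its partner Cdca8 1.48 and 1.56. The kinetochore genes Cenpf (1.65 and 1.84) and Cenpe (1.38 and 1.92) and the checkpoint kinase Bub1 (1.10 and 0.99) were higher too. The mitotic kinase Plk1 was 1.99 and 1.88 higher, with only 16 and 31 UMIs in the Havcr2- Tcf7+ class, and Tpx2, which activates Aurora A at the spindle, 1.88 and 1.73. The motor gene Kif11 and the spindle gene Nusap1 were 1.18 to 1.72 higher. Stmn1, which destabilises microtubules, was 1.31 and 1.43 higher, while Tubb5 (0.69 and 0.53) did not pass in both. For mitotic exit, Ube2c, which marks cyclins for destruction, was 1.32 and 2.08 higher, and Cdc20, which activates the ligase that Ube2c serves, 0.91 and 1.21.

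**Figure D4:**
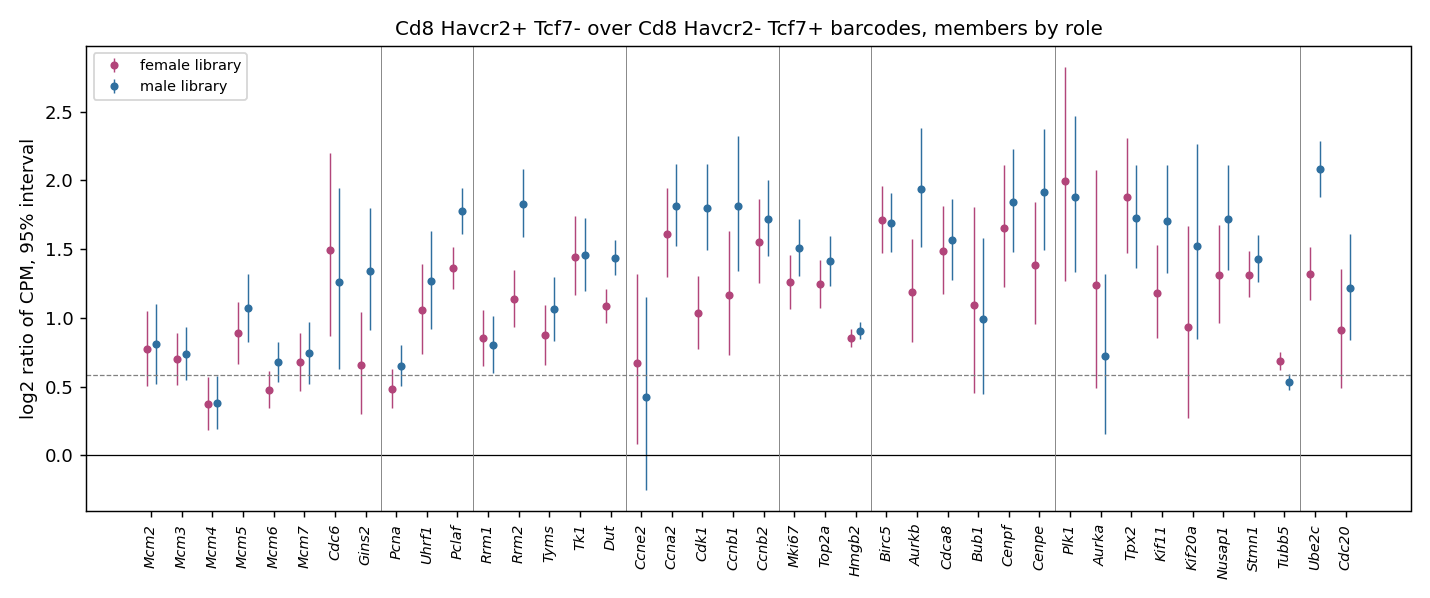
log2 ratio of CPM in Cd8 Havcr2+ Tcf7- over Cd8 Havcr2- Tcf7+ barcodes (y axis) for each member (x axis, in groups by role), in the female and the male library, with exact 95% intervals of a ratio of counts. The dashed line is 1.5-fold. All members lie above 0, with Mcm4 (0.37 and 0.38) among the lowest and Plk1 (1.99 and 1.88) among the highest.

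With barcodes of 5000 to 15000 UMIs only, 20 of 27 measured members were higher in both libraries and 0 lower, where 11.3% of all genes were higher and 6.29% lower. Medians were 1.62 in female and 0.99 in male barcodes, all 11 measured G2/M members were higher, and 8 of 14 S members were. Of those G2/M members Ccna2, Cdk1, Ccnb2, Birc5, Cdca8, Tpx2 and Kif11 reached 10 CPM in Havcr2+ Tcf7- barcodes only. They thus passed the filter through the class where they are high, and the count is a description and not a test. Birc5 was at 32.8 against 1.57 CPM in female and 36.5 against 6.49 CPM in male barcodes. Mki67 was at 41.3 against 7.05 CPM and 40.1 against 11.6 CPM, and Pclaf at 50.9 against 3.13 CPM and 46.1 against 11.6 CPM. The female values of 1.57 CPM for Birc5 and 3.13 CPM for Pclaf rest on 4 and 8 UMIs. Mcm4, which stood at -0.09 in both libraries, and Pcna, Mcm3, Mcm6, Mcm7, Rrm1 and Tubb5 did not pass. Depth was closer in this range but not equal, with medians of 10135.5 UMIs in Havcr2+ Tcf7- against 7695 in Havcr2- Tcf7+ barcodes of the female library, and 9530 against 7800.5 in the male. The 6 tumour or epithelial markers summed over all depths to 6.87 against 3.55 CPM in female and 27.2 against 3.40 CPM in male barcodes, and the 10 myeloid markers to 59.0 against 98.4 CPM and 141 against 136 CPM. Their part in the result was not tested.

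The other genes of the pathway went the same way in the comparison over all depths. Of 27 measured genes of the other S list 16 were higher in Havcr2+ Tcf7- barcodes and 0 lower, among them Cdc45 (1.41 and 1.69) and Clspn (1.24 and 1.34). Of 24 genes of the other G2/M list 19 were higher and 0 lower, led by Hmmr (1.69 and 2.11), Ckap2l, Nuf2 and Cdca2. Regulators were mixed, with 7 of 14 higher and 1 lower. Cdk6, the kinase that partners D cyclins, was at 104 against 41.9 CPM and 96.9 against 36.0 CPM, E2f3 was 1.12 and 1.15 higher, and Foxm1 1.09 and 2.42 higher. Myc, a growth regulator of early activation, was the 1 that was lower, by -1.32 and -1.59. Of 15 measured genes of the list of inhibitors and rest, 5 were lower and 1 higher. The lower ones were S1pr1 (14.7 against 121 CPM and 20.04 against 128 CPM), Klf2 (-2.81 and -2.58), Tob1, Foxo1 and Btg1, and the higher one was Cdkn2c (0.79 and 1.46), an inhibitor of Cdk4 and Cdk6. The genes of this list that moved most, S1pr1 and Klf2, are also known for T cell recirculation.

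The state genes of cycling and other Cd8 barcodes were compared in the thinned counts. Tcf7 was lower in cycling barcodes, by -1.29 (-1.65 to -0.95) in female and -1.47 (-1.82 to -1.14) in male barcodes, and so was Il7r (-0.65 and -1.03), a receptor gene of resting and memory T cells. Gzmb, a granule protease, was 0.50 and 0.59 higher, which is short of 1.5-fold in the female library. Prf1, the perforin gene, was 0.63 and 0.79 higher. Granule genes did not all go this way, since the protease gene Gzma was lower, by -0.71 and -0.31. Havcr2 and Pdcd1 gave -0.01 and 0.03 in the female library, with intervals on both sides of 0, and 0.45 and 0.23 in the male library. Cycling Cd8 barcodes were deeper, so these values come from barcodes of 1 depth after thinning, but of different depth before it.

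Some members were higher in Foxp3 barcodes without Cd8 than in other Cd4 barcodes, most of them G2/M genes. Of 26 measured members 8 were higher in both libraries and 0 lower, where 10.9% of all genes were higher and 6% lower. These were Uhrf1, Tk1, Cdk1, Ccnb2, Top2a, Birc5, Ube2c and Stmn1, so 5 of 9 G2/M members and 2 of 15 S members. Ccnb2 was at 64.9 against 9.46 CPM in female and at 15.96 against 1.45 CPM in male barcodes, where the lower value rests on 2 UMIs. Top2a was at 73.4 against 44.8 CPM and 46.2 against 26.1 CPM. From 5000 to 15000 UMIs, 5 of 16 measured members were higher (Tyms, Mki67, Top2a, Ube2c and Stmn1), where 12.1% of all genes were. Mki67 stood there at 33.1 against 10.0 CPM and 18.9 against 7.12 CPM. Markers of other cells moved with this comparison: the 6 tumour or epithelial markers summed to 662 against 1.26 CPM in female and 22.9 against 3.63 CPM in male barcodes, and the 10 myeloid markers to 814 against 114 CPM and 839 against 260 CPM. Their part in it was not tested. Beside the members, the regulators Cdk6, E2f2, E2f3 and Ccnd2 were higher in Foxp3 barcodes in both libraries, and S1pr1, Btg2, Klf2 and Slfn2 were among 5 genes of the rest list that were lower.

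Cd8 barcodes exceeded Foxp3 barcodes without Cd8 in 23 of 35 measured members, with 0 lower, where 7.33% of all genes were higher and 15.2% lower. Pclaf was at 177 against 55.4 CPM in female and 149 against 43.0 CPM in male barcodes, and Dut at 232 against 90.4 CPM and 219 against 92.5 CPM. The libraries went opposite ways for Ccnb2 (-0.31 in the female and 1.64 in the male), Cdc20 (-0.38 and 3.04) and Plk1 (-0.20 and 1.85). The tumour or epithelial markers stood at 45.5 and 14.2 CPM in Cd8 barcodes, below the Foxp3 barcodes. From 5000 to 15000 UMIs 6 of 22 members were 1.5-fold higher in both libraries (Mcm2, Pclaf, Dut, Ccnb2, Birc5 and Stmn1), where 6.8% of all genes were. Ccnb2 and Birc5 had not passed in both at all depths. The inhibitors of cyclin-dependent kinases Cdkn1a and Cdkn1b were lower in Cd8 barcodes at all depths, Cdkn1a at 69.6 against 245 CPM and 76.0 against 194 CPM and Cdkn1b at 96.0 against 195 CPM and 101 against 214 CPM. Foxp3 barcodes with Cd8 UMIs exceeded those without in 28 of 36 members at all depths, where 6.02% of all genes were higher and 12.1% lower. At 5000 to 15000 UMIs it was 0 of 18, where 2.85% of all genes were higher and 2.91% lower, and Tyms and Mki67 were lower instead. Mki67 was there at 8.49 against 33.1 CPM in female and at 12.0 against 18.9 CPM in male barcodes.

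In Cd8 barcodes of all depths no measured member differed 1.5-fold between the libraries. The 36 measured members had a median log2 ratio of female over male of 0.19, against 0.02 over all genes, and 0 passed 1.5-fold in either direction, where 0.574% of all genes were higher and 1.37% lower. S members ranged from 0.07 to 0.32 and all 16 were above 0, for example Mcm5 at 63.9 CPM in female and 53.6 CPM in male barcodes (0.25, 0.15 to 0.35). G2/M members ranged from -0.24 (Plk1) to 0.29 (Nusap1), with Mki67 at 99.1 and 85.4 CPM (0.21, 0.14 to 0.29). Without barcodes above 20000 UMIs, which were 470 of 2245 female and 316 of 1940 male Cd8 barcodes and held 75.7% and 68.5% of the member UMIs, the G2/M median was -0.25 and the S median 0.14. Of 31 members measured there, 0 passed towards the female library and 2 towards the male (Cenpf and Cdc20), where 0.818% of all genes were higher and 1.37% lower. From 5000 to 15000 UMIs, by contrast, the G2/M median of Cd8 barcodes was 0.07 and the S median 0.29, so the negative G2/M median was not seen in that range. In Havcr2+ Tcf7- barcodes of all depths, where 0 of 39 members passed 1.5-fold (0.612% of all genes were higher and 1.3% lower), the S median was 0.15 and the G2/M median -0.18. Without those above 20000 UMIs the G2/M median was -0.44, and 6 of 17 G2/M members and 0 of 15 S members passed 1.5-fold towards the male library and 0 towards the female, where 1.03% of all genes were higher and 2.26% lower. Ccnb1 was the farthest of them at -1.44, and it reached 10 CPM in the male library only. The share of cycling Cd8 barcodes was 6.56 points higher in the female library (3.75 to 9.34), and 17.7% against 12.5% from 5000 to 15000 UMIs. In Havcr2- Tcf7+ barcodes 5 of 34 members passed 1.5-fold towards the female library, where 2.64% of all genes did. By group, Havcr2- Tcf7- barcodes differed most clearly, with 23.3% cycling in female and 14.6% in male barcodes (8.80 points, 3.03 to 14.3). The tumour or epithelial markers moved with this, at 275 CPM in female and 3.24 CPM in male barcodes of that group, and their part was not tested. Of the 777 barcodes of that group with at least 3000 UMIs, 3 held 20 or more UMIs of Krt8 and Krt18. Over all Cd8 barcodes the median member ratio was 0.19 with and without such barcodes. Havcr2+ Tcf7- barcodes differed by 2.48 points (-2.25 to 7.17). Mice, sort, library and sex cannot be told apart in these values.

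Foxp3 barcodes without Cd8 carried more G2/M transcripts in the female library. Of 35 measured members 18 passed 1.5-fold towards the female library and 0 towards the male, where 7.3% of all genes were higher and 6.37% lower. The G2/M median was 1.12 with 15 of 18 members past 1.5-fold, and the S median 0.16 with 2 of 15. Ccnb2 stood at 64.9 CPM in female and 15.96 CPM in male barcodes (2.02, 1.497 to 2.58), Birc5 at 64.9 and 25.4 CPM (1.35, 0.91 to 1.82), Ube2c at 66.9 and 31.9 CPM (1.07, 0.65 to 1.49), and Cdc20 at 26.0 and 2.46 CPM, from 52 and 6 UMIs (3.40, 2.18 to 4.91). Mki67 (0.35, -0.03 to 0.73), Aurkb and Kif11 were the G2/M members that did not pass, and Mcm5 (0.06, -0.43 to 0.54) and Pcna (0.01, -0.29 to 0.31) were not told apart. These values rest on few barcodes: 1 barcode held 24.6% of the female Ccnb2 UMIs and another 50% of the male Cenpf UMIs, so the intervals, which treat UMIs as independent, are too narrow. Without the 8 female and 7 male barcodes above 20000 UMIs, the G2/M median was 0.95 with 10 of 11 members past 1.5-fold towards the female library, where 4.84% of all genes were higher and 6.69% lower, and Birc5 did not pass (0.52). Of those members Ccna2, Cdk1, Cenpe, Kif11 and Cdc20 reached 10 CPM in the female library only, so the count is a description and not a test. Taking every member with a UMI in both libraries, whatever its level, 17 of 21 G2/M members passed at all depths, with a median of 1.07. From 5000 to 15000 UMIs 14 of 24 members passed towards the female library, where 6.46% of all genes were higher and 8.46% lower, and the median over all members was 0.65, but Birc5 was at -0.37. In that range 8 of 15 S members passed, with a median of 0.63, and 5 of 7 G2/M members, with a median of 0.79. The female excess was thus not limited to G2/M members there. Markers of tumour or epithelial cells moved with this result. The 6 markers summed to 662 CPM in female and 22.9 CPM in male barcodes of the class, with Krt19, Krt5 and Krt7 at 0 in the female and Krt19 and Krt7 at 0 in the male, and in cycling female barcodes the thinned counts gave 333 CPM against 14.98 CPM in the others. Without the 2 barcodes, both female, that held 20 or more UMIs of Krt8 and Krt18, the median over all members was 0.52 in place of 0.61. The G2/M median was then 0.80 in place of 1.12, with 13 of 17 members past 1.5-fold. Leaving out barcodes with 2 or more thinned UMIs of markers of other cells also gave a G2/M median of 0.80, with 15 of 18. The 10 myeloid markers summed to 814 CPM in female and 839 CPM in male barcodes, where C1qa, C1qb, S100a8 and S100a9 were at 0. The share of cycling barcodes differed by 5.32 points (-0.933 to 11.9), with an interval that reached below 0.

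**Figure D5:**
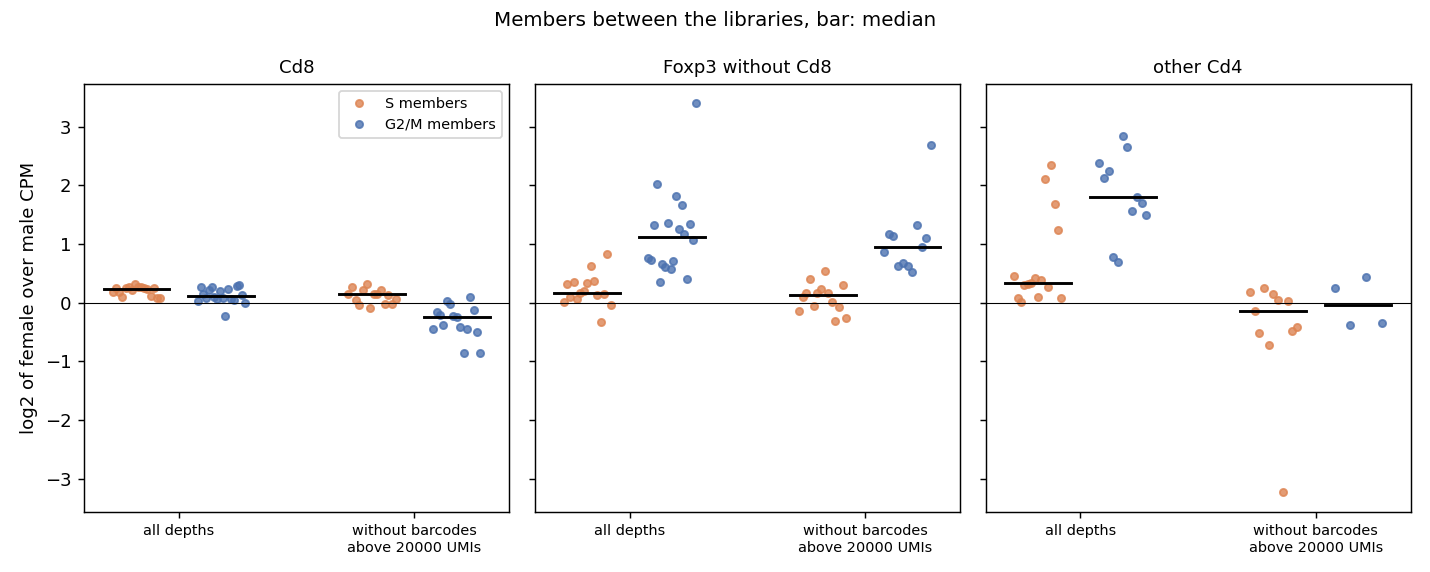
log2 ratio of female over male CPM (y axis) of each measured S and G2/M member in Cd8, Foxp3 without Cd8 and other Cd4 barcodes, at all depths and without barcodes above 20000 UMIs (x axis). Points are members and bars are medians. In other Cd4 barcodes the G2/M median is 1.80 at all depths and -0.04 without the deep barcodes, while in Foxp3 barcodes without Cd8 it is 1.12 and 0.95.

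Other Cd4 barcodes showed a female excess that shrank or turned when the deepest barcodes were left out. At all depths 16 of 28 measured members passed 1.5-fold towards the female library and 0 towards the male, where 8.05% of all genes were higher and 7.7% lower, and the median was 0.80. A member passes the filter on level more easily where 1 library is high, so this count is a description and not a test. Ube2c was at 34.7 and 12.3 CPM, Mki67 at 44.8 and 9.43 CPM, and Pclaf at 56.1 and 13.1 CPM. A single barcode held 70.9% of the female Ube2c UMIs, 43.7% of the Mki67 UMIs and 50.6% of the Pclaf UMIs. The 6 female barcodes above 20000 UMIs held 40.4% of all female member UMIs of the class, and the 1 male barcode held 1.06%. Without these 7 barcodes the median was -0.14, with 0 of 17 members higher and 3 lower (Pclaf, Mcm5 and Tubb5), where 7.49% of all genes were higher and 9.01% lower. The direction of the median in this class thus changed without the barcodes above 20000 UMIs, while Hmgb2, at 624 and 388 CPM (0.69, 0.53 to 0.84) at all depths, stayed above 0 without them (0.43, 0.27 to 0.59). From 5000 to 15000 UMIs, which leaves those barcodes out too, the median over 12 measured members was 0.20, so the direction did not change there. Foxp3 barcodes with Cd8 had a median of 0.16 over 37 members, of which 0 passed 1.5-fold, where 0.491% of all genes were higher and 0.918% lower.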

How the data were processed

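The deposited values were UMI counts of each gene in each barcode, in 1 matrix per library. The file headers name Cell Ranger 7.0.1, with GRCm38 and Seurat 5 named in the submitters' processing notes. Every column of a matrix was taken as a barcode of its own library. Kept barcodes showed 500 genes or more and no more than 10% mitochondrial UMIs. Those with at least 3000 UMIs were thinned once to 3000 with a fixed seed, and classes were set from the unthinned counts. No doublet caller was run; deep barcodes were treated by a window of 5000 to 15000 UMIs and by leaving out those above 20000. Depth ran from 50946624 to 55880364 UMIs per library.

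With 1 library per sex no test and no p-value was computed. Shares have exact Clopper-Pearson intervals (95%), differences of shares combine these bounds, and ratios have exact Poisson intervals, all for counting error only; a count of 0 was set to 3 in a ratio. UMIs of 1 barcode are not independent, so intervals of ratios are too narrow. Genes were measured at 10 CPM and 20 UMIs and called at 1.5-fold. Because 10 CPM in 1 of the 2 groups was enough, a gene passed more easily where 1 group was high. All counts of members past 1.5-fold, between classes or libraries, are therefore descriptions and not tests. The interval code was tested on simulated data. Python 3.11.15, numpy 2.4.6, scipy 1.17.1, pandas 2.3.3, scanpy 1.11.5, matplotlib 3.10.9, R 4.3.3 and edgeR 4.0.16 (scaling factors only) were used.

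The members and lists were chosen with earlier results of these data known. Named were all 40 members, up to 4 genes of each other list by size of the ratio with at least 50 UMIs, a set of T cell state genes, and the 5 genes most like Mki67; a few genes that the rule names are not reported here, and genes named to complete a count of 6 or fewer were chosen after their values were seen. Promoters came from RefSeq (GRCm38.p6) and gene positions from GENCODE M21.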

Additional observations from a re-analysis of the deposited data

How the results depend on the processing

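The cycling shares are values of the call and moved with its settings, and the cause was not tested. In the order Cd8, Foxp3 without Cd8, Foxp3 with Cd8 and other Cd4 they were 27.2%, 13.7%, 50.5% and 9.95% as reported. They were 19.99%, 9.21%, 41.6% and 5.11% when thinned to 2000 UMIs, 40.96%, 29.2%, 64.8% and 24.2% when thinned to 5000, and 58.7%, 36.3%, 89.1% and 29.4% with no thinning. With 2 genes for a call they were 48.1%, 38.7%, 69.3% and 38.4%, and with 5 genes 15.6%, 5.50%, 29.1% and 1.85%. Without Hmgb2, Dut, Stmn1 and Tubb5 they were 23.1%, 10.1%, 43.9% and 6.25%, and by scanpy's cell cycle score 34.6%, 17.6%, 56.1% and 17.1%. From 5000 to 15000 UMIs the first 3 were 15.3%, 10.2% and 8.72%. Classes set from the thinned counts gave 30.9% for Cd8 and 40.1% for Foxp3 with Cd8.

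The difference of Havcr2+ Tcf7- minus Havcr2- Tcf7+ (24.4 points) kept its direction in the settings tried. It was 29.9 with no thinning, 19.1 with 5 genes, 19.9 with classes from the thinned counts, 11.3 in the depth window and 20.8 by the scanpy score. The G2/M share of cycling Cd8 barcodes (53.9%) was 60.7% at 2000 and 50.8% at 5000 UMIs, 48.7% with no thinning, 62.9% with 5 genes, 35.6% in the window, 21.1% by the scanpy score and 58.98% in the highest of 20 other draws. That of Foxp3 barcodes without Cd8 (43.1%) was 21.5% by the scanpy score.

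The median female over male ratio of other Cd4 barcodes (0.80) was 1.59 with classes from the thinned counts and 0.10 in thinned barcodes. In that class Top2a was at -0.22 and Tyms at -0.40 when thinned, Top2a at -0.034 in the window and Tpx2 at -0.025 by the mean of barcodes. In Foxp3 barcodes without Cd8, Cdca8 was at -0.12 by the mean of barcodes and Birc5 at -0.37 in the window.

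Further settings were chosen after seeing the data. Without Pcna, Mcm4, Mcm6, Dut and Hmgb2 the shares were 17.1%, 5.69%, 35.5% and 1.85%, the difference 20.1 points (20.05), and the G2/M shares 68.98% in Cd8 and 63.3% in Foxp3 without Cd8. Without barcodes above 20000 UMIs the Cd8 share was 17.7%, that of Foxp3 with Cd8 13.8%, the difference 14.5 points, the Cd8 G2/M share 39.1% and the median sex ratio -0.028 in Cd8 and -0.14 in other Cd4, where Pclaf was at -3.23, Tyms at -0.48, Top2a at -0.38 and Ube2c at -0.34. Of the summary values tried, 88 stayed within their spread, 60 moved and 1 reversed, and of the values of single genes 268, 31 and 10. Among the summary values, only the difference of Havcr2+ Tcf7- minus Havcr2- Tcf7+ and medians past 1.5-fold could be labelled reversed. The Cd8 median, which went from 0.19 to -0.028, counts as moved, so the number of reversals is no measure of stability. No paired analysis was possible because each sex has 1 library, and for the same reason no library could be left out. Scaling by TMM or by the median of ratios shifted the ratios of a class by 0.03 at most.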

Other observations

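The genes outside the members that kept closest to barcodes with a Mki67 UMI were the histone gene Hist1h2af (71 UMIs with and 27 without Mki67, log2 ratio 4.52), BC030867 (4.42), the E2F repressor gene E2f8 (4.15), the histone gene Hist1h3b (4.004) and Shcbp1 (3.95), out of 10239 genes compared.

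Barcodes outside the T cell classes also held the call. Among the 475 barcodes with no Cd8, Foxp3 or Cd4 assignment, 16% were cycling (12.8 to 19.6), at a median depth of 4999 UMIs. Of 60 barcodes with 20 or more UMIs of the keratin genes Krt8 and Krt18, 46.7% were cycling (33.7 to 60.0), at a median of 53024 UMIs, and 49 of them lay outside the T cell classes.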
